A study of Mus musculus with 12 samples.

Results

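Serpine2, Plau, Plaur and Plat are 4 of the 19369 genes in the tables of the Total libraries and 4 of the 18574 genes in the tables of the CD45 libraries. They were selected on their UMI counts by cell class and tumour in these same libraries, so their levels are a description and carry no test. The study grew tumours in the mammary fat pad of female BALB/c mice, labelled 9 to 11 weeks old, from the mouse triple-negative breast cancer line 4T1 or from 1 of 5 populations that each descend from a single 4T1 cell. The clones carry the names E, M, EM1, EM2 and EM3, and the series describes them as spanning epithelial, intermediate and mesenchymal states. Each group was 1 tumour, so every clone is a single line in a single graft, and all hosts were of the same strain with no further treatment named. Each tumour gave a Total library of all cells and a CD45 library of cells taken with CD45 magnetic beads, 12 libraries in all.

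The 4 genes belong to the plasminogen system. Urokinase (encoded by Plau) and tissue-type plasminogen activator (Plat) cut plasminogen into plasmin, a protease that digests fibrin and activates other matrix proteases. The urokinase receptor (Plaur) is held to the cell surface by a lipid anchor and gathers urokinase there, a route long studied in tumour invasion and in the movement of neutrophils and macrophages. Protease nexin-1 (Serpine2) is a secreted serpin that blocks thrombin, urokinase, tissue-type activator and plasmin.

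In the GENCODE M21 annotation of GRCm38, Serpine2 lies on the reverse strand at chr1:79794197-79861180. Plau lies on the forward strand at chr14:20836660-20843385, Plaur at chr7:24462484-24475968 and Plat at chr8:22757727-22782844. The RefSeq promoter table (GRCm38.p6) held 2 of the 4 genes, Serpine2 and Plaur. Their stretches from 250 to 32 bases before the RefSeq gene start are shown, since none was at hand for Plau and Plat. The Serpine2 stretch is chr1:79858697-79858915 on the reverse strand, within an intron of 1 longer annotated transcript. The Plaur stretch is chr7:24462233-24462451 on the forward strand, outside annotated transcripts of the gene. Capitals mark matches on either strand to GGGCGG, the core of an Sp1 box, and to TGANTCA, the AP-1 site, in which N is any base. Neighbouring GGGCGG matches may share a base.
Serpine2: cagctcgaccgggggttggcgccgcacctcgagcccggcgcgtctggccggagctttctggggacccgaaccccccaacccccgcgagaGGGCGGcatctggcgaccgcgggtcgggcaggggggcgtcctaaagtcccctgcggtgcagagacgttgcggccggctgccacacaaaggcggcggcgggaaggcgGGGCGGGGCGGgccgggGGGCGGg
Plaur: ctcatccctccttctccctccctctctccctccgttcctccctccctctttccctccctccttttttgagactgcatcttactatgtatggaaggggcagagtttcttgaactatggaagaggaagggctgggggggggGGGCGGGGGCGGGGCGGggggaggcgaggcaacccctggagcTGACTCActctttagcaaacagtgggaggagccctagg
The Serpine2 stretch held 4 matches to GGGCGG and 0 to TGANTCA. The Plaur stretch held 3 matches to GGGCGG and 1 to TGANTCA, written TGACTCA. Over 32817 promoter stretches of the same length, 28.3% held GGGCGG and 6.08% held TGANTCA. G and C made up 77.6% of the Serpine2 stretch and 60.7% of the Plaur stretch, against a median of 52.1% over all stretches. A match is a run of letters and was not tested as a site.

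The libraries held 6709 to 13467 cells and 28083101 to 122055131 UMIs (unique molecular identifiers, a single count for each tagged molecule). The labels name both a fixed-RNA preparation kit and a 3′ kit. On their own they do not settle whether the counts come from probes or from RNA ends. The meaning of a count near 0 depends on this. Of the 19369 gene names of the Total libraries, 56 began with DEPRECATED. Cell classes are the authors' deposited annotation, and a class is given where a library holds at least 50 cells annotated as such, before doublets were left out. Levels are UMIs of a gene per 1000000 UMIs summed over the cells of a class (CPM), with exact 95% Poisson intervals that cover counting error only. The annotated classes held their defining markers, the B class least cleanly: the summed level of 8 fibroblast markers was 72435 to 161057 CPM in fibroblasts against 217 to 370 CPM in tumour cells. The 6 tumour cell markers, such as Epcam and Krt8, summed to 2124 to 11420 CPM in tumour cells and to at most 1188 CPM in the other named classes, with 2260 CPM in cells annotated as Unknown. In the B class of the Total libraries B markers had a median of 2248 CPM, plasma cell markers 3431 CPM and plasmacytoid dendritic markers 3522 CPM. The first 16 bases of cell barcodes were shared in 12.2% to 19.1% of the smaller library for 14 pairs of libraries, and in 0.686% to 1.91% for the other 52 pairs. By this sharing E and EM3 form 1 barcode set, EM1 and EM2 another, and M and parental 4T1 each stand apart. The 14 pairs shared 0 full barcodes, as their last 8 bases differed. What the barcode ends and gene names say of the kit used was not tested. A difference between tumours of different sets cannot be told apart from the set, and no difference between tumours has a replicate.

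Serpine2, the protease inhibitor, was close to absent from E tumour cells and abundant in the tumour cells of the other 5 tumours. In E, 771 annotated tumour cells held 17 UMIs of Serpine2, a level of 3.30 CPM (1.92 to 5.29). The level was 654 CPM in EM1, 1067 CPM in EM2, 892 CPM in EM3, 803 CPM in M and 692 CPM in parental 4T1. Neighbours in this order did not overlap in their counting intervals. EM3 and E, which share a barcode set, differed 270-fold (169 to 464). M was 243-fold above E (152 to 417), and parental 4T1 was 210-fold above it (131 to 360). The parental line stood between EM1, the lowest of the other 5, and M.

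**Figure D1:**
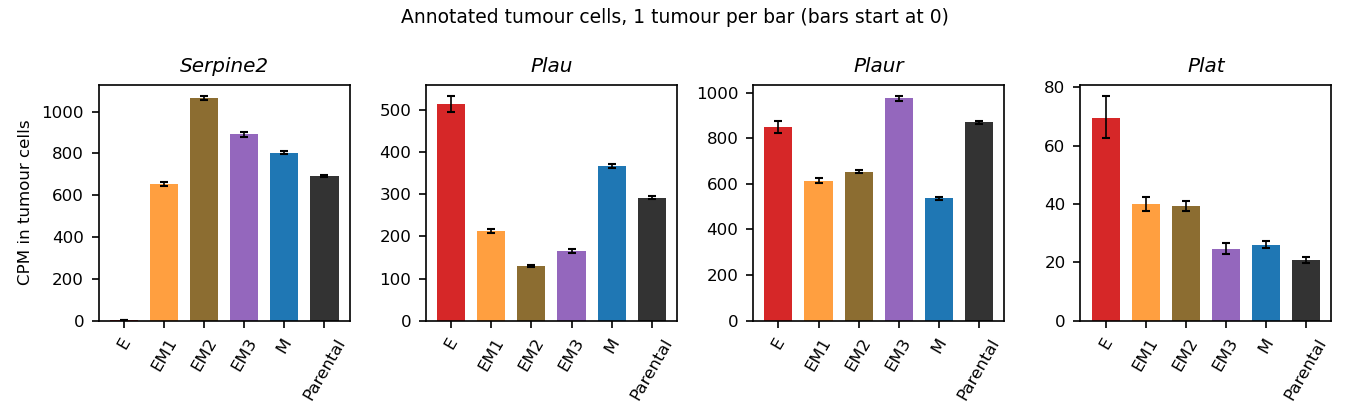
CPM of the 4 genes in annotated tumour cells of the 6 tumours, with 1 bar per tumour from 0 and exact 95% Poisson intervals as lines. Serpine2 stands at 3.30 CPM in E and at 654 to 1067 CPM in the other 5, while Plau and Plat are highest in E.

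The share of tumour cells with a UMI of Serpine2 differed in the same direction as its summed level. At equal depth this share depends on the level, so it is not a separate result. Each cell was thinned to 2000 UMIs so that depth was equal, which left out 32 to 228 shallower tumour cells per tumour. In E, 0.851% of 705 tumour cells then held a UMI (exact Clopper-Pearson interval 0.313% to 1.84%), against 1.56% of cells before thinning. Shares depend on the thinning depth: at 1000 UMIs the E share was 0.133% and the highest of the other tumours 46.7%. The share after thinning to 2000 UMIs was 61.4% in both EM2 and M, 58.0% in EM3, 46.8% in parental 4T1 and 46.7% in EM1. T/NK cells of the same library, set beside the tumour cells for comparison, gave 2.18% in E and 12.9% to 32.9% in the other 5 tumours. The E tumour cell share was thus below that of its T/NK cells. In the other 5 tumours the share of tumour cells was above that of T/NK cells, most narrowly in parental 4T1.

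Within those 5 tumours Serpine2 was spread unevenly over tumour cells. The variance of thinned UMIs per cell was 3.55 to 4.31 times the mean, where 1 would be counting noise around a single level, and single tumour cells held up to 24 to 41 UMIs. Plau had a ratio of 1.89 to 4.00 over the 6 tumours, Plaur 1.37 to 1.88 and Plat 1.08 to 1.64. This ratio rises with the mean, which differs between the genes, so it does not rank them.

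Fibroblasts were the other named cell type with high Serpine2, and in E they held it where the tumour cells did not. Their level was 288 CPM in E (249 to 330, from 201 UMIs in 135 cells). It was 1241 CPM in EM1, 956 CPM in EM2, 566 CPM in EM3, 789 CPM in M and 1170 CPM in parental 4T1. E was the lowest of the 6, and EM1, with 52 fibroblasts, the highest, though its interval overlapped that of parental 4T1. The E fibroblasts also held the least Col1a1, a fibroblast collagen gene, at 27854 CPM against 41533 to 66722 CPM in the other tumours, and the most Ptprc, the gene of the leukocyte protein CD45, at 117 CPM against 7.37 to 36.4 CPM. Their summed granulocyte and macrophage markers were the highest of the 6, at 2281 CPM (lowest 61.6, median 592) and 1814 CPM (lowest 239.5, median 665). The part of these markers in the low Serpine2 of E fibroblasts was not tested. The EM3 fibroblasts stood 1.97-fold above those of E (1.66 to 2.34). Fibroblasts exceeded tumour cells in E, EM1 and parental 4T1, tumour cells exceeded fibroblasts in EM2 and EM3, and in M the intervals overlapped. Cells that the deposited annotation calls Unknown held 615 CPM of Serpine2 in EM2, 454 CPM in EM3, 521 CPM in M and 508 CPM in parental 4T1. These cells carried summed tumour markers of 982 to 2260 CPM and macrophage markers of 5733 to 8679 CPM.

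Fibroblasts also held some RNA of tumour cell markers. These markers stood in fibroblasts at a median of 4.79% to 27.1% of their tumour cell level, and Serpine2, in the 5 tumours without E, at 63.5% to 190% of its own. Only markers at 50 CPM or more in the tumour cells of a tumour entered its median. These were 6 in E, EM1 and parental 4T1, 5 in EM2, 4 in M and 2 in EM3. Fibroblasts without a UMI of the keratins Krt8 and Krt18, a choice made after seeing the data, held 366 CPM of Serpine2 in E (60 cells), 1731 CPM in EM1 (29 cells), 1134 CPM in EM2 and 594 CPM in EM3. In M they held 741 CPM and in parental 4T1 1529 CPM. Without the cells that held keratin RNA the fibroblast level was higher in 5 tumours, and lower in M, with overlapping intervals in E, EM3 and M. Pericyte markers summed to 369 to 1234 CPM in the fibroblast class, and their part in the result was not tested.

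Fewer fibroblasts of E held the gene. After thinning to 2000 UMIs, 17.8% of 101 fibroblasts held a UMI in E (10.9% to 26.7%). The shares were 60.2% in parental 4T1, 53.8% in EM2, 51.5% in EM3, 51.3% in EM1 and 49.0% in M. The T/NK share given above was also lowest in E, at 2.18%, and reached 32.9% among the other tumours. Its part in the fibroblast shares was not tested. Single fibroblasts held as many as 254 unthinned UMIs in EM2 and 223 in parental 4T1, against 39 in E. These maxima are not adjusted for depth or cell number. Over all cells of the Total library the median was 2351 UMIs per cell in E, 6266 in EM2 and 10042 in parental 4T1. The fibroblast class ran from 52 to 258 cells. Endothelial cells of E held 0 UMIs in 68 cells, which by a floor of 3 UMIs allows up to 10.2 CPM and a share of up to 4.41% of cells with a UMI. Endothelial cells of EM2, M and parental 4T1 held 217 CPM, 147 CPM and 287 CPM.

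**Figure D2:**
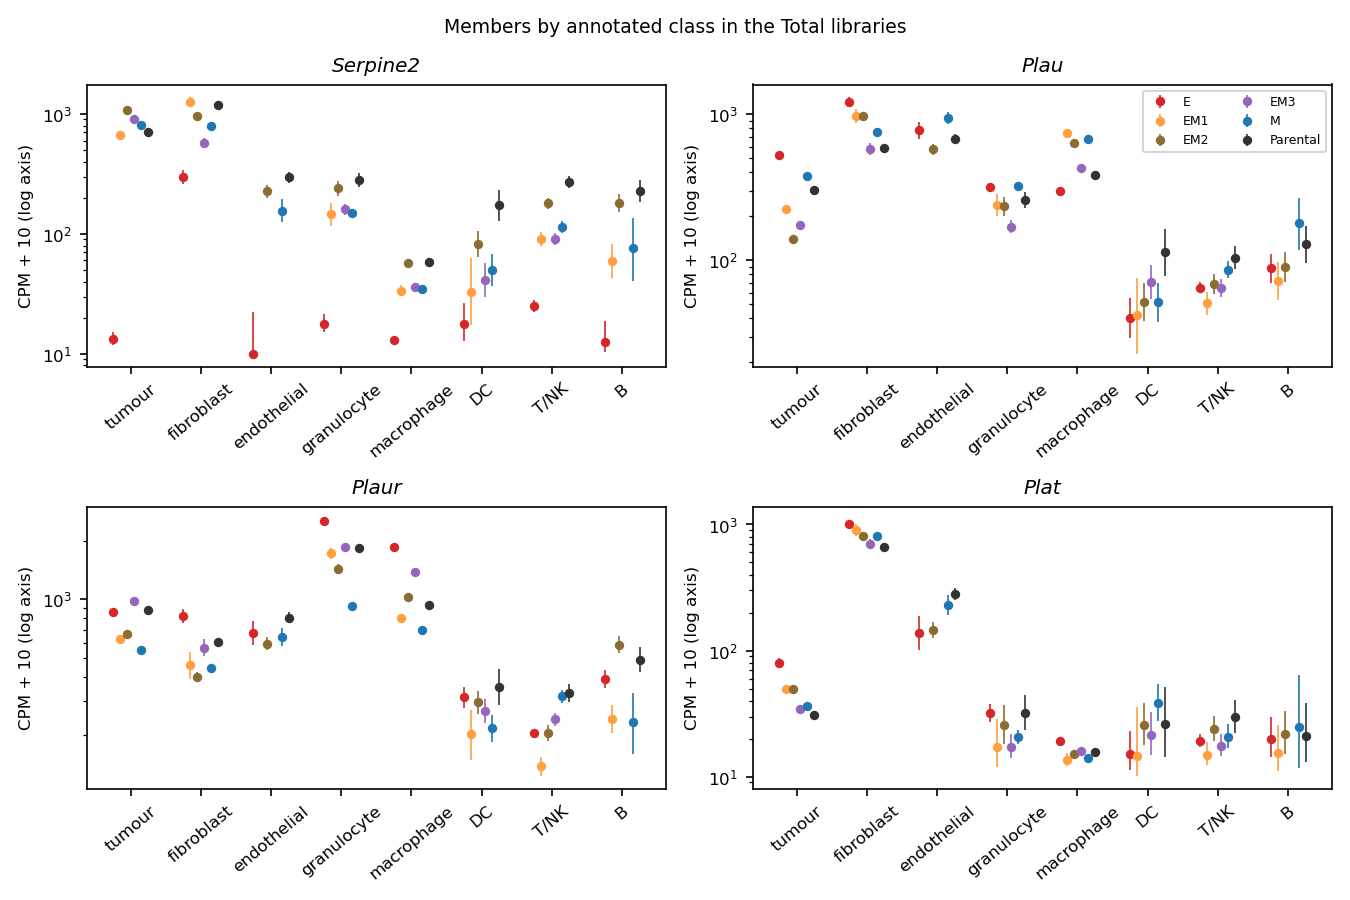
CPM + 10 on a log axis for each gene and annotated class of the Total libraries, 1 point per tumour with its exact 95% Poisson interval; classes under 50 cells are left out. Serpine2 is high in fibroblasts and, except in E, in tumour cells, Plau in fibroblasts and endothelial cells, Plaur in granulocytes and Plat in fibroblasts.

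Immune classes held more Serpine2 in the Total libraries than in the CD45 libraries of the same tumours, except B cells of E. Those held 2.48 CPM in the Total and 3.02 CPM in the CD45 library, on 2 UMIs each. Granulocytes held 7.81 CPM in E and 136 to 272 CPM in the other 5 Total libraries, and 0.593 to 6.98 CPM in the CD45 libraries. Macrophages held 3.03 CPM in E, 23.7 to 48.0 CPM in the other 5 Total libraries and 0.728 to 2.36 CPM in the CD45 libraries. The Total value was above the CD45 value in 6 of 6 tumours for both classes, by a median of 99.3-fold in granulocytes and 21.2-fold in macrophages. Krt8, a keratin of epithelial cells, did the same: its level was higher in the Total library in 6 of 6 tumours, by a median of 76.1-fold in granulocytes and 36.8-fold in macrophages. The fibroblast collagen Col1a1 was higher by a median of 58.5-fold in macrophages of the 6 tumours and 156-fold in granulocytes of 5, since granulocytes of EM1 held 0 UMIs of it in the CD45 library. In E, Serpine2 differed less in T cells, at 15.1 CPM in the T/NK class of the Total library and 7.60 CPM in CD45 T cells. That was 1.98-fold, where Krt8 differed 72.6-fold.

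**Figure D3:**
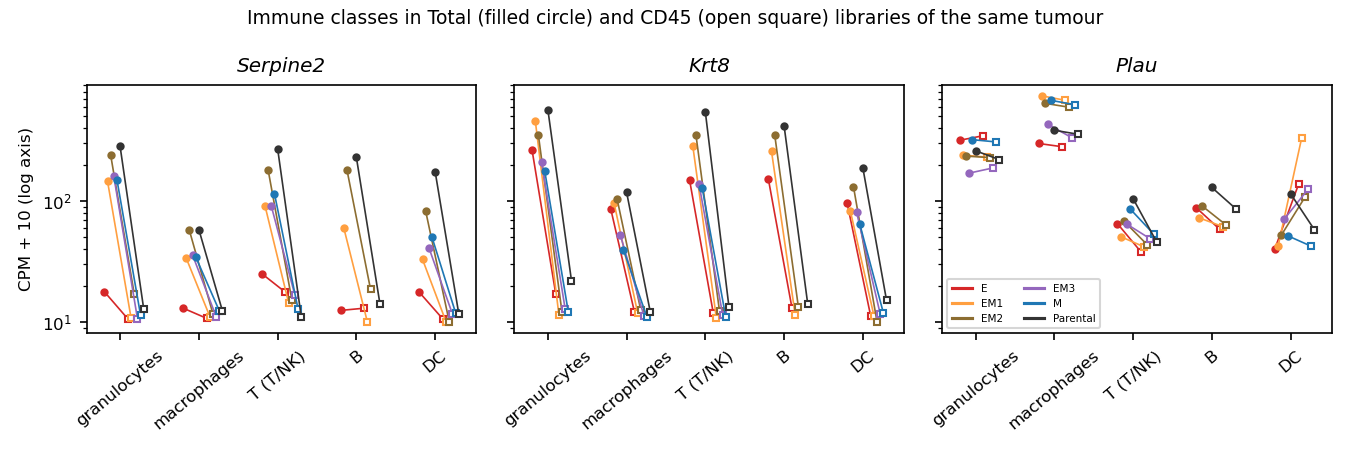
CPM + 10 on a log axis in immune classes of the Total (filled circles) and CD45 (open squares) library of the same tumour, joined by lines. Serpine2 and Krt8 drop to about the pseudocount of 10 in the CD45 libraries, while Plau stays at a like level in granulocytes and macrophages.

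Outside E, the immune values of Serpine2 were close to those of tumour cell markers. In these 5 tumours, markers stood in granulocytes at a median of 13.4% to 32.9% of their tumour cell level, and Serpine2 at 16.9% to 39.3% of its own. As above, the median rests on 2 markers in EM3, 4 in M, 5 in EM2 and 6 in EM1 and parental 4T1. In macrophages the markers stood at 2.60% to 5.57% and Serpine2 at 2.89% to 6.94%. In T/NK cells the markers stood at 10.0% to 27.8% and Serpine2 at 9.06% to 37.6%. In E, where tumour cells hardly held the gene, Serpine2 stood at 237% of its tumour cell level in granulocytes, 91.7% in macrophages and 457% in T/NK cells, and the markers at 8.05%, 2.53% and 5.06%. Dendritic cells and B cells of E stood at 230% and 75.1%. The part of tumour cell RNA in these values was not tested. Fibroblasts and, less so, endothelial cells departed from this pattern: Serpine2 stood in endothelial cells of 3 tumours at 18.3% to 41.4% and the markers at 3.77% to 17.4%.

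**Figure D4:**
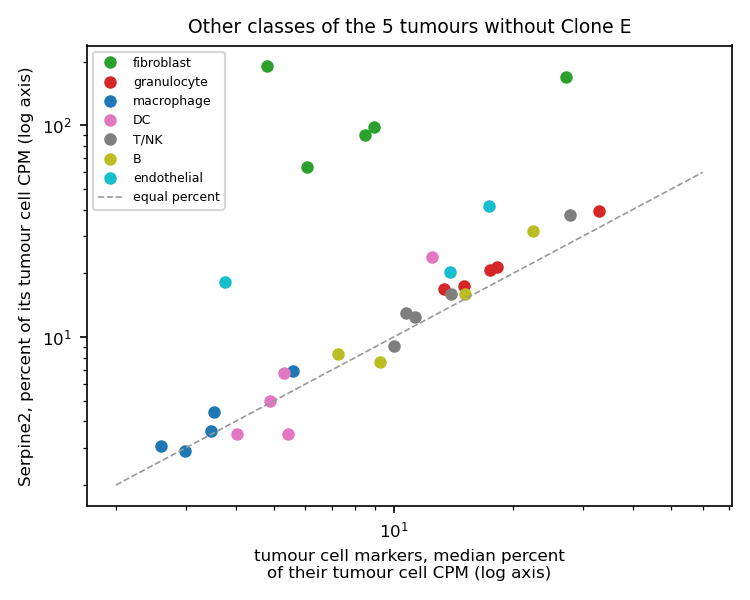
For each class and each of the 5 tumours without E, the median level of tumour cell markers (x) and the level of Serpine2 (y), both as percent of the level in tumour cells of that tumour, on log axes with a line of equal percent. The median covers 2 markers in EM3, 4 in M, 5 in EM2 and 6 in EM1 and parental 4T1. Immune classes lie near the line, and fibroblasts lie well above it at 63.5% to 190%.

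In E several immune classes of the Total library held more Serpine2 than the 3.30 CPM of its tumour cells: T/NK cells 15.1 CPM, granulocytes 7.81 CPM and dendritic cells 7.59 CPM. B cells held 2.48 CPM. Of the T/NK cells, 64 of 3042 had a UMI, 1 of them 9. In the finer annotation of the CD45 libraries, Gzmb+ Cd8+ T cells of E held 16.6 CPM (10.3 to 25.4, 21 UMIs in 14 of 561 cells), while Cd44- Cd4+ T cells of E held 0 UMIs in 405 cells. NK cells of EM1 held 42.4 CPM in the finer annotation (22.6 to 72.6, 13 UMIs in 8 of 192 cells) and 84.4 CPM in the broader one (13 UMIs over 132 cells). These values rest on few UMIs and few cells.

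Plau, encoding urokinase, was highest in E among the tumour cells, the reverse of Serpine2. The level was 514 CPM in E (495 to 534), 213 CPM in EM1, 130 CPM in EM2, 164 CPM in EM3, 368 CPM in M and 292 CPM in parental 4T1. E came first and M second, with the 3 EM clones lowest, and neighbours did not overlap in their intervals. E was 3.13-fold above EM3 (2.98 to 3.28), 3.96-fold above EM2 (3.79 to 4.15) and 2.41-fold above EM1 (2.30 to 2.53). Against M it was 1.40-fold higher (1.34 to 1.45) and against parental 4T1 1.76-fold higher (1.69 to 1.83). After thinning, 39.4% of E tumour cells held a UMI, against 17.5% in EM2 and 38.0% in M. T/NK cells gave 4.74% to 13.4%.

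The E tumour cells held the most Ptprc and the highest sums of granulocyte and macrophage markers. Ptprc stood at 23.7 CPM in E tumour cells and at 3.32 to 4.75 CPM in the other 5. The granulocyte markers summed to 944 CPM in E (lowest 146, median 228) and the macrophage markers to 344 CPM (lowest 63.3, median 110.0), while the B cell markers were highest in M, at 34.6 CPM. Of the leukocyte integrin subunits Itgb2 and Itgam, picked after their values were seen, Itgb2 was higher in tumour cells of parental 4T1 (158 CPM) and EM3 (106 CPM) than in those of E (83.9 CPM). Itgam was highest in E, at 23.9 CPM against 2.32 to 10.2 CPM in the other 5. The part of the summed markers in the result was not tested. Leaving out tumour cells with a Ptprc UMI gave a log2 ratio of -1.65 for Plau in EM3 over E, against -1.59 with them. Macrophages and granulocytes of E held less Plau than its tumour cells, at 288 CPM and 308 CPM.

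Among all classes Plau was led by stromal cells. Fibroblasts held 1211 CPM in E, 959 CPM in EM1, 957 CPM in EM2, 570 CPM in EM3, 746 CPM in M and 576 CPM in parental 4T1. Endothelial cells held 765 CPM in E, 564 CPM in EM2, 931 CPM in M and 669 CPM in parental 4T1. Fibroblasts were the highest class in 4 tumours and endothelial cells in M and parental 4T1. In EM1 (48 endothelial cells) and EM3 (37) no endothelial level is given, so fibroblasts were above endothelial cells only in E and EM2. Fibroblasts exceeded tumour cells in 6 of 6 tumours, by a median of 1.48 on the log2(CPM + 10) scale (0.95 to 2.79). Fibroblasts of E also held the most, as its tumour cells did, and its fibroblasts stood 2.12-fold above those of EM3 (1.89 to 2.40).

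In macrophages the order of the tumours turned. The level of Plau was lowest in E at 288 CPM and was 729 CPM in EM1, 630 CPM in EM2, 419 CPM in EM3, 667 CPM in M and 374 CPM in parental 4T1. The CD45 libraries gave 270 CPM in E, 668 CPM in EM1, 585 CPM in EM2, 323 CPM in EM3, 614 CPM in M and 346 CPM in parental 4T1. In both kinds of library EM1, M and EM2 led in that order, E was last, and EM3 and parental 4T1 changed places. M macrophages stood 2.31-fold above E in the Total libraries (2.25 to 2.38) and 2.27-fold in the CD45 libraries (2.21 to 2.33). Both libraries of a tumour come from the same animal, so this repeats the measurement and not the tumour.

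Granulocytes held a lower and narrower range of Plau, 160 CPM in EM3 to 311 CPM in M, and 177 to 336 CPM in the CD45 libraries. Cells annotated as Other Myeloid, a class of the CD45 libraries, ran from 272 CPM in E to 961 CPM in M. They were the highest CD45 class in 5 of 6 tumours, within overlapping intervals of macrophages in EM2, and granulocytes were the highest in E. Other Myeloid cells held summed macrophage markers of 11550 to 17294 CPM, much like the 9956 to 16963 CPM of annotated macrophages in the CD45 libraries. Dendritic cells held less in the Total than in the CD45 library in 4 of 6 tumours, by a median ratio of 0.482 over the 6, and more in M (41.7 CPM against 32.3 CPM) and parental 4T1 (104.6 CPM against 48.1 CPM). The widest gap was in EM1, where they held 32.1 CPM in the Total library (7 UMIs in 55 cells) and 322 CPM in the CD45 library (178 cells). Macrophage markers in these cells summed to 417 CPM and 5034 CPM, and their part in the result was not tested. T/NK and B cells of the Total libraries held 40.8 to 171 CPM.

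Plat, the other activator, was a fibroblast transcript in all 6 tumours. Fibroblasts held 1007 CPM in E, 892 CPM in EM1, 803 CPM in EM2, 695 CPM in EM3, 803 CPM in M and 650 CPM in parental 4T1. The highest was 1.55 times the lowest, the narrowest range of the 4 genes in this class. After thinning, 60.2% to 69.2% of fibroblasts held a UMI. Endothelial cells came next with 129 CPM in E, 136 CPM in EM2, 222 CPM in M and 274 CPM in parental 4T1. Fibroblasts exceeded endothelial cells in 4 of 4 tumours, by a median of 2.14 on the log2(CPM + 10) scale, and tumour cells in 6 of 6, by 4.26.

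Tumour cells held little Plat, and most of it in E. The level was 69.5 CPM in E (62.5 to 77.1), 40.0 CPM in EM1, 39.3 CPM in EM2, 24.7 CPM in EM3, 26.1 CPM in M and 20.9 CPM in parental 4T1. The intervals of EM1 and EM2 overlapped, as did those of EM3 and M. E was 2.82-fold above EM3 (2.47 to 3.20) and 2.66-fold above M (2.37 to 2.99). Fibroblast markers stood in tumour cells at a median of at most 0.404% of their fibroblast level, and Plat at 3.21% to 6.91% of its own. After thinning, 9.65% of E tumour cells held a UMI and 3.82% of those of parental 4T1. T/NK cells gave 0.770% in E and 4.88% in parental 4T1, the latter from 82 thinned cells, so the share in parental tumour cells was not above that in T/NK cells.

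Most immune classes of the CD45 libraries held little Plat. Granulocytes held 0 to 2.10 CPM there, macrophages 1.28 CPM in M to 5.16 CPM in E, and annotated NK cells 0 UMIs in the 4 tumours with at least 50 of them. Dendritic cells held 1.29 to 18.4 CPM and were the highest CD45 class in 4 tumours, on 6 to 23 UMIs each. Their interval overlapped that of the next class in E, M and parental 4T1, and not in EM2. Cells annotated as T/Myeloid Hybrid held 42.5 CPM in EM1 (5 UMIs in the 40 cells left without doublets), and Cd44+ Cd4+ T cells of parental 4T1 held 46.3 CPM (6 UMIs in 3 of 110 cells).

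Plaur, the urokinase receptor, was highest in granulocytes in 6 of 6 tumours in both kinds of library. In the CD45 library of M that place is not certain, as the interval of T/Myeloid Hybrid cells, at 917 CPM, overlapped that of granulocytes. The Total libraries gave 2513 CPM in E, 1715 CPM in EM1, 1417 CPM in EM2, 1850 CPM in EM3, 917 CPM in M and 1831 CPM in parental 4T1. The CD45 libraries gave 2949 CPM in E, 1690 CPM in EM1, 1875 CPM in EM2, 2144 CPM in EM3, 960 CPM in M and 2434 CPM in parental 4T1. E was the highest and M the lowest in both. In the Total libraries E stood 2.74-fold above M (2.65 to 2.84). EM3, parental 4T1 and EM1 could not be ordered there, as each overlapped its neighbour.

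In the Total libraries macrophages came second in each tumour, with the same tumours at both ends. In M that place is not certain, as the interval of endothelial cells, at 633 CPM, overlapped that of macrophages. Their level was 1849 CPM in E, 793 CPM in EM1, 1025 CPM in EM2, 1377 CPM in EM3, 687 CPM in M and 927 CPM in parental 4T1. The CD45 libraries gave 1886 CPM in E, 862 CPM in EM1, 1162 CPM in EM2, 1729 CPM in EM3, 736 CPM in M and 1131 CPM in parental 4T1. The 6 tumours fell in 1 order in both kinds of library, from E over EM3, EM2, parental 4T1 and EM1 to M. Macrophages of E thus held the most Plaur and the least Plau of the 6. E stood 2.69-fold above M (2.64 to 2.74) and, within their shared barcode set, 1.34-fold above EM3 (1.32 to 1.36).

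In tumour cells Plaur varied least of the 4 genes. The level was 849 CPM in E, 614 CPM in EM1, 653 CPM in EM2, 975 CPM in EM3, 536 CPM in M and 869 CPM in parental 4T1. EM3 was the highest and M the lowest, and parental 4T1 and E overlapped. The ratio of EM3 over E was 1.15 (1.11 to 1.19) and that of M over E was 0.631 (0.612 to 0.652). After thinning, 57.3% to 75.4% of tumour cells held a UMI, against 10.5% to 29.3% of T/NK cells.

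Fibroblasts and endothelial cells held Plaur at levels near those of tumour cells. Fibroblasts ran from 390 CPM in EM2 to 815 CPM in E and were below tumour cells in 6 of 6 tumours, by a median of 0.49 on the log2(CPM + 10) scale. In E the ratio to tumour cells was 96.0%, within overlapping intervals. E was also where the fibroblasts held the most Ptprc and the highest granulocyte and macrophage markers, given above, and the part of these in their Plaur was not tested. Endothelial cells ran from 583 CPM in EM2 to 796 CPM in parental 4T1. Dendritic cells held 192 to 346 CPM in the Total libraries and 219 to 737 CPM in the CD45 libraries. Macrophage markers in them summed to a median of 803 CPM in the Total and 3107 CPM in the CD45 libraries, and their part in this was not tested. T/NK cells held 128 to 321 CPM.

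**Figure D5:**
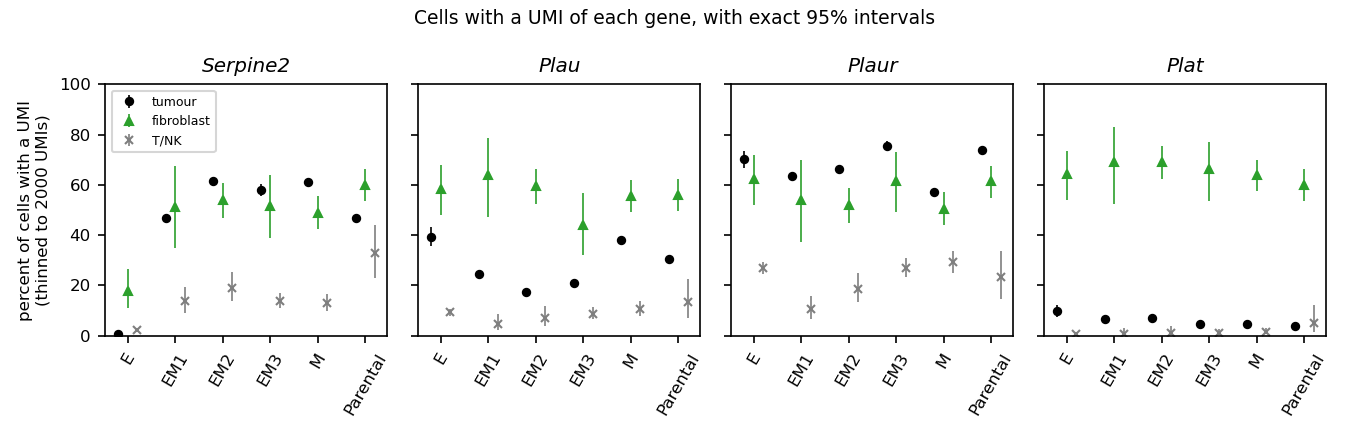
Percent of cells with a UMI of each gene after thinning to 2000 UMIs, in tumour cells (circles), fibroblasts (triangles) and T/NK cells (crosses) of each tumour, with exact 95% Clopper-Pearson intervals. Serpine2 is at 0.851% in E tumour cells and at 46.7% to 61.4% in the other 5, and Plat is found in 60.2% to 69.2% of fibroblasts and in 3.82% to 9.65% of tumour cells.

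Detection of a pair of genes in the same tumour cells was set beside the product of their shares. Cells with both Plau and Plaur made up 30.5% of thinned E tumour cells where the product of the shares was 27.7%, and 16.6% in EM3 where it was 15.7%. Cells with both Serpine2 and Plau made up 22.3% in M where the product was 23.3%, and 9.89% in EM1 where it was 11.4%. Plau and Plat were found together in 63 cells of EM1 where the product gave 43.4, in 27 cells of EM3 where it gave 18.5 and in 29 cells of E where it gave 26.8. Pearson correlations over cells ran from 0.05 to 0.21 for Plau with Plaur and from -0.09 to -0.04 for Serpine2 with Plau outside E. These are weak values in sparse counts from cells of 1 library each and are given as a description.

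Counted against a 2-fold difference on the log2(CPM + 10) scale, the 4 members split by direction. Serpine2 passed it upward in the 5 tumours set against E. Of all genes at 50 CPM or more in either tumour, 6.5% passed it upward in M, 3.82% in EM3, 3.8% in EM2, 3.73% in EM1 and 2.92% in parental 4T1. Plau passed it downward in EM1, EM2 and EM3, where 5.18%, 6.3% and 6.9% of all genes did. Plat passed it downward in EM3, M and parental 4T1, where 6.9%, 8.22% and 6.55% did. Plaur passed it in 0 of the 5. The members were chosen with these contrasts in view, so nothing is read from the counts. The 5 comparisons share the E tumour.

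Median-ratio size factors shifted all genes by 0.20 to 0.33 on the log2 scale against E. With them Plau in EM1 stood at -0.93, Plat in EM3 at -0.94 and Plat in M at -0.96, so these 3 no longer passed 2-fold. Serpine2 passed it in all 5 tumours under each of the 6 alternatives run, from 5.62 in EM1 to 7.96 in EM2.

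Of the wider plasminogen system, 42 of 43 listed genes were in the tables and 19 to 20 reached 50 CPM in either tumour of a comparison. In EM3 over E, 2 were higher and 7 lower, where 3.82% and 6.9% of all genes were. In M over E, 4 were higher and 3 lower, where 6.5% and 8.22% were. The median log2 ratio of the listed genes was 0.08 in EM3 and -0.06 in M, against 0.02 and 0.11 for all genes.

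Lrp1, a receptor that takes up complexes of serpins with their proteases, was the listed gene that passed 2-fold upward in all 5 tumours. Its level in tumour cells was 299 CPM in E, 1087 CPM in EM3 and 980 CPM in M. Among the tumour cells Lrp1 was thus lowest in E, as Serpine2 was, though not near 0. The other classes did not all pair the genes in this way. Macrophages held 846 to 1128 CPM of Lrp1 and 3.03 to 48.0 CPM of Serpine2. Fibroblasts held 1360 to 2182 CPM of Lrp1 and 288 to 1241 CPM of Serpine2. St14, matriptase, a membrane protease that can activate pro-urokinase, passed downward in all 5, from 411 CPM in E to 34.6 CPM in EM3 and 29.0 CPM in M. F3, tissue factor, the starter of clotting that leads to thrombin, did so too, from 102 CPM in E to 13.2 CPM in EM3 and 7.99 CPM in M. The share of all genes that passed in all 5 was not counted. The 5 comparisons share the E tumour, so nothing is read from passing in all 5.

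Receptors that the gene list groups under the thrombin axis, not all of them receptors of thrombin itself, passed the 2-fold difference in different tumours. F2r, the thrombin receptor PAR1, stood at 103 CPM in E and 321 CPM in M, and did not pass in EM3, at 192 CPM. F2rl1, the receptor PAR2, stood at 79.0 CPM in E, 27.3 CPM in EM2 and 12.8 CPM in EM3, and did not pass in M, at 75.1 CPM. Procr, the endothelial protein C receptor, stood at 145 CPM in E, 399 CPM in EM3 and 641 CPM in parental 4T1. Among the clearance receptors of the list, Sorl1, a sorting receptor, was lower past 2-fold in both EM3 and M, at 16.7 CPM and 17.2 CPM against 55.9 CPM in E.

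Among substrates and related proteases, Mmp14, a membrane-bound collagenase, stood at 281 CPM in E and 716 CPM in M. Mmp9, gelatinase B, stood at 195 CPM in E and 30.1 CPM in EM3. Mmp3, stromelysin-1, moved both ways against its 83.3 CPM in E: it stood at 322 CPM in parental 4T1, 210 CPM in EM1, 142 CPM in EM2, 60.7 CPM in M and 31.9 CPM in EM3. Among the surface receptors and cofactors of the list, Itgb5, an integrin subunit of vitronectin receptors, stood at 119 CPM in E and 282 CPM in M.

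Of the other inhibitors, Serpinb2, plasminogen activator inhibitor 2, was highest in fibroblasts, at 328 to 1446 CPM, and ran from 0.566 to 9.90 CPM in tumour cells. T/NK cells held 33.0 to 426 CPM and granulocytes 9.09 to 56.7 CPM.

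The genes most like each member were sought over 45 sums of 1 class in 1 tumour, among 8744 genes that reached 50 CPM in 1 sum. These points share libraries and tumours, so the correlations are a description. Serpine2 was most like Htra1 (Pearson r = 0.91 and, for a second row of the table that the names table gives as Htra1, 0.90), then Bmp7 (0.88), Ptges (0.88) and Tpbg (0.87). Htra1 ran from 76.3 to 574 CPM in tumour cells and from 202 to 540 CPM in fibroblasts.

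Plau was most like Rcan1 (0.87), Lhfpl2 (0.87), Sash1 (0.87), Rhob (0.85) and Rusc2 (0.85). Plaur was most like Slc2a1 (0.87), Cebpb (0.85), Rffl (0.82), Mindy1 (0.81) and Ets2 (0.81). Plat was most like Adam12 (0.96), Tbx3 (0.96), Abcc9 (0.95), Kalrn (0.94) and P3h4 (0.94). Among the members, Plau and Plat had an r of 0.64, Plau and Plaur 0.57, Serpine2 and Plat 0.53 and Serpine2 and Plau 0.27. Plaur had an r of 0.04 with both Serpine2 and Plat.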

How the data were processed

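The 12 libraries were analysed from the deposited tables of raw UMI counts per gene and cell, which hold whole numbers per the file headers and values. The genome build mm10 and Cell Ranger come from the submitters' processing notes, and the Cell Ranger version is not given in the sources used here. Cell classes are those of the deposited annotation, the broader column unless the finer is named. It separates fibroblasts from endothelial cells, so the planned split of stromal cells by markers was not needed.

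Scrublet in scanpy 1.11.5 (Python 3.11.15, numpy 2.4.6, scipy 1.17.1, pandas 2.3.3) called 3196 of 115612 cells doublets, which were left out. Counts were summed per class and tumour and divided by the summed UMIs of the class (CPM). Ratios carry exact conditional binomial intervals, and shares exact Clopper-Pearson ones after thinning to 2000 UMIs. Log2 ratios used a pseudocount of 10 CPM. Each group is 1 tumour, so there is no test between tumours and no p-value. The scripts were tested on simulated data.

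The members and gene lists were chosen with earlier results of these data known. Listed genes are named with values where they passed 2-fold in EM3 or M over E at 50 CPM or more, with Serpinb2 and Lrp1 always named; 1 listed gene is not reported here. The 5 most similar genes are named for each member. Alternatives changed doublets, genes per cell, scaling, pseudocount, weighting of cells, annotation, library and thinning.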

Additional observations from a re-analysis of the deposited data

How the results depend on the processing

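No paired analysis was possible because each group is 1 tumour, so no replicate numbers pair the groups. The Total and CD45 libraries of a tumour, and its classes, do pair, and were set side by side as counts of tumours with no test run. Serpine2 was higher than in E in all 5 tumours under the 6 alternatives run. With a pseudocount of 1 CPM the log2 ratio of Serpine2 was 7.70 in EM3 over E and 7.55 in M over E, that of Plat was -1.46 and -1.38, and Plat in fibroblasts over tumour cells had a median of 4.60. With median-ratio size factors Plau stood at -1.29 in EM3 and -0.28 in M, Plaur at 0.50 and -0.46, and Plat at -0.94 and -0.96, all over E. The mean of per-cell CPM gave -0.57 for Plau and -0.70 for Plaur in M over E, and tumour cells without a Ptprc UMI gave -0.56 for Plau in M over E. Serpine2 in granulocytes over macrophages had a median of 2.12, which became -0.032 when taken from CD45 libraries, where both classes were near 0 CPM; the cause was not tested. With size factors 4 listed genes were higher in EM3 over E, against 2. The alternatives for the listed genes, the fibroblasts without keratin UMIs and the medians without the E tumour were chosen after seeing the data. Of the shares of tumour cells with a UMI, 47 of the values under alternatives moved past the counting interval and 25 did not. The lowest and highest shares over the 6 tumours went from 0.851% and 61.4% at 2000 UMIs to 0.133% and 46.7% at 1000 UMIs and 1.56% and 90.9% without thinning for Serpine2. For Plau they were 17.5% and 39.4%, 8.99% and 28.5%, and 53.8% and 79.1%. For Plaur they were 57.3% and 75.4%, 36.9% and 55.3%, and 88.2% and 97.4%. For Plat they were 3.82% and 9.65%, 1.99% and 5.57%, and 19.1% and 33.0%. Depth limits values that rest on few UMIs or cells, such as Serpine2 in E tumour cells (17 UMIs), E endothelial cells (68 cells) and EM1 fibroblasts (52 cells).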
